A study of Homo sapiens with 12 samples.

Results

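The RBM genes carry the prefix of the RNA-binding motif, and 38 of them had splicing events in the deposited tables under the rule used here. Members were all skipped exons and retained introns whose gene symbol starts with RBM, other than those of RBM15 and RBM17, that had a mean of at least 10 reads (inclusion plus skipping) per library. This gave 554 of 97177 skipped exon events in the tables without siUPF1 and 472 of 93272 in the tables with siUPF1. For retained introns it gave 51 of 8017 and 45 of 7118. At the threshold, an RBM12B exon was the lowest inside with 10 reads per library and an RBM25 exon the highest outside with 9.83. RBM39 had the most member events of any gene, 169, followed by RBM6 with 73 and RBM10 with 70.

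The RNA came from 293A-TOA cells, a line derived from human embryonic kidney cells, and every group, controls included, received TG at 1 μM during 6 hours. TG (thiamet G) inhibits O-GlcNAcase, the enzyme that removes the sugar O-GlcNAc from proteins. The 4 groups of 3 biological replicates were siNT (non-target siRNA), siSFSWAP, siNT/siUPF1 and siSFSWAP/siUPF1, 12 libraries in all, collected 5 days after transfection with a mix of 2 siRNAs against SFSWAP at 40 nM and, where used, siRNA against UPF1 at 30 nM. SFSWAP is a splicing factor of the SURP domain family, and UPF1 is the RNA helicase required for nonsense-mediated decay, which degrades transcripts with an early stop codon. The comparisons ask what loss of SFSWAP did to splicing of the RBM transcripts, and whether it did so when decay was reduced as well. Libraries are given in the order in which the tables list them, which carries no replicate number and pairs nothing.

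Most RBM proteins hold an RNA recognition motif, a fold that grips a few bases of single-stranded RNA. Many of them work in splicing itself. RBM8A is a core protein of the exon junction complex, which is left on mRNA after splicing and which UPF1-dependent decay reads. RBM22 sits in the catalytic core of the spliceosome. RBM39 is a relative of the U2 factor U2AF2, and RBM5, RBM6 and RBM10 are related proteins that influence the choice of exons. Transcripts of splicing factors often carry exons that bring an early stop codon, so that splicing and decay together set how much mRNA remains.

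Reads over all skipped exon events ranged from 25938092 to 40637076 per library, of which 135344 to 231048 fell on RBM events, counting a read again in each event it supports. For retained introns the RBM reads ranged from 12534 to 21739. The labels were checked by the reads of the targeted genes. SFSWAP had 52.7, 54.6 and 55.8 RPM in the siNT libraries and 18.3, 26.8 and 20.4 in the siSFSWAP libraries. RPM are a gene's reads over skipped exon events listed both without and with siUPF1, scaled to the same total in each library. UPF1 had 283, 354 and 249 RPM in the siNT group, beside 63.4, 86.8 and 112 in the siNT/siUPF1 group. In siSFSWAP it had 379, 346 and 318 RPM, and in siSFSWAP/siUPF1 86.5, 116 and 155. In neither comparison with siNT did the levels overlap, and the exact permutation test gave p = 0.1 for each, the smallest that 3 against 3 libraries allow.

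The following coding exons were less included after SFSWAP knockdown. Those of RBM38 and RBM5 are printed because they were called changed both without and with siUPF1. That of RBM22, called only without siUPF1, is printed because it has only 30 bases. Exon bases are in capitals and flanking intron bases in lower case, read 5′ to 3′ from hg38. The RBM22 exon is exon 3 (chr5:150699236-150699291 with the flanks, minus strand), the RBM38 exon is exon 3 (chr20:57393259-57393339, plus strand) and the RBM5 exon is exon 8 (chr3:50104228-50104314, plus strand), each counted in the MANE Select transcript, the reference transcript chosen for the gene.
RBM22 exon 3: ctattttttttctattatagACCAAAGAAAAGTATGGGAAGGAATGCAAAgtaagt
RBM38 exon 3: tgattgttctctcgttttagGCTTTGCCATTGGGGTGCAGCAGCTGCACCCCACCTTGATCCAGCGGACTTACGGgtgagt
RBM5 exon 8: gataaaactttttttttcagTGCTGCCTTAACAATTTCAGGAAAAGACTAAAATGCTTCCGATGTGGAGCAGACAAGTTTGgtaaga

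The next set shows exons whose inclusion brings an early stop codon, from the first base of the exon to the stop, which is in capitals. They are printed because 3 of the 4 fell in siSFSWAP/siUPF1, and the 73-nt exon of RBM39 passed the same test there with groups that overlapped. The stretches lie at chr14:73100301-73100318 (RBM25, plus strand), chr1:235160215-235160248 (RBM34, minus strand), and chr20:35734215-35734257 and chr20:35740526-35740597 (RBM39, minus strand), all within introns of the MANE Select transcript.
RBM25 62-nt exon: agatcatatggtgacTAA
RBM34 104-nt exon: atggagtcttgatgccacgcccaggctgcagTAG
RBM39 72-nt exon: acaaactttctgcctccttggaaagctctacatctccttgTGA
RBM39 73-nt exon: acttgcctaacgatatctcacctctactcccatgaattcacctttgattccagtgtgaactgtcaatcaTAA

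Without siUPF1, SFSWAP knockdown changed 18 RBM exon events in 9 genes. Of 202 tested events, 6 were more included and 12 less included, and the falls lay in RBM8A, RBM22, RBM38, RBM5, RBM6, RBM48 and RBMX. An event was called changed when its adjusted p in a quasi-binomial test of inclusion against skipping reads, adjusted over all events tested, was at most 0.05 and the inclusion levels (the proportion of transcripts that carry the exon or intron, from reads scaled by the length of each form) of the groups did not overlap. Among all 33839 events tested, 6.63% were called higher and 3.74% lower. Among the RBM events it was 2.97% and 5.94%, where some events are forms of the same exon that share reads, as in RBM8A and RBM5. The median log2 odds ratio of inclusion was 0.01 over the RBM events and 0.26 over all events. Leaving out the siSFSWAP library listed 3rd brought the count to 11, and limma on the log2 odds called 8 of the RBM events, with RBM22, RBM8A and the 96-nt exon of RBM38 among them.

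By role, 13 of the 18 changed events lay in genes of the spliceosome and exon junction complex, where 5 of 99 tested events rose and 8 fell, in 7 of 10 genes. These genes held 99 of the 202 tested RBM events, 42 of them in RBM39. Over all genes 6.63% of events were called higher and 3.74% lower, and no test compared the roles. Among the regulators of alternative splicing 1 of 45 rose and 4 fell, in RBM38 and RBMX. No event passed in the cold shock and single-strand binding genes (11 tested), the decay, export and m6A adaptors (16), the ribosome and nucleolus genes (19) or the other RBM genes (12), at these depths.

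RBM8A exon 3 (78 nt) was skipped in few reads in siNT and in more in siSFSWAP. Its inclusion level was 0.998, 0.994 and 0.996 in siNT and 0.959, 0.977 and 0.946 in siSFSWAP, from 3, 9 and 6 skipping reads in siNT and 52, 27 and 73 in siSFSWAP. Every siSFSWAP library lay below every siNT library. The mean fell from 0.996 ± 0.002 to 0.960 ± 0.016 (SD, n = 3), with a log2 odds ratio of -3.26 (SE 0.56; quasi-binomial adjusted p = 2.48e-08). Skipping keeps the frame and shortens the open reading frame from 174 to 148 codons. A form of the exon with another acceptor, 75 nt long, shares the skipping reads and gave -3.29. With siUPF1 the levels were 0.994, 0.986 and 0.997 in siNT/siUPF1 and 0.971, 0.940 and 0.984 in siSFSWAP/siUPF1, with a log2 odds ratio of -2.12 (SE 0.55; quasi-binomial adjusted p = 0.00161). That call was lost without the siSFSWAP/siUPF1 library listed 2nd.

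RBM22 exon 3 (30 nt, chr5:150699242-150699271) had no skipping read in any siNT library. In siSFSWAP it had 19, 19 and 10 skipping reads beside 389, 435 and 402 inclusion reads, which gave levels of 0.940, 0.946 and 0.969 (quasi-binomial adjusted p = 7.62e-06). No fold is given, since the siNT libraries are at 0. Skipping keeps the frame and shortens the protein from 420 to 410 codons. With siUPF1 there were again 0 skipping reads in the 3 control libraries and 4, 8 and 3 in siSFSWAP/siUPF1, and the adjusted p was 0.0512 in the quasi-binomial test.

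RBM38, an RNA-binding protein induced by p53, had a change in each of several places. Exon 3 (55 nt, chr20:57393279-57393333) was included at 0.860, 0.895 and 0.857 in siNT and at 0.677, 0.683 and 0.721 in siSFSWAP. The groups did not overlap, and the mean fell from 0.871 ± 0.021 to 0.694 ± 0.024 (SD, n = 3), with a log2 odds ratio of -1.56 (SE 0.30; quasi-binomial adjusted p = 3.56e-05). Skipping shifts the frame in the last exon and leaves 121 of 239 codons. With siUPF1 the levels were 0.974, 0.958 and 0.898 in the controls and 0.709, 0.780 and 0.728 after SFSWAP knockdown, with a log2 odds ratio of -2.40 (SE 0.52; quasi-binomial adjusted p = 1.71e-04). The call held with each of the 6 libraries left out, with and without siUPF1.

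A 96-nt exon of RBM38 between exons 1 and 2 (chr20:57392397-57392492), which adds 32 codons, rose instead. It had 1, 2 and 1 inclusion reads in the siNT libraries and 20, 17 and 14 after knockdown, for levels of 0.002, 0.005 and 0.003 and of 0.034, 0.045 and 0.036. The log2 odds ratio was 3.57 (SE 1.07; quasi-binomial adjusted p = 6.36e-04). The 161-nt intron that follows this exon (chr20:57392493-57392653) gave the only RBM intron called changed, at a mean of 19.7 reads per library. It was retained at 0.873, 1.000 and 1.000 in siNT and at 0.305, 0.372 and 0.400 in siSFSWAP, with no overlap (log2 odds ratio -4.38, SE 1.78; quasi-binomial adjusted p = 0.0154). The skipping reads of the intron event join the 96-nt exon to exon 2, so these 2 events share reads. The intron's call was lost without the siSFSWAP library listed 1st.

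RBM5 lost a pair of coding exons whose skipping brings an early stop. Exon 8 (61 nt, chr3:50104248-50104308) was included at 0.886, 0.812 and 0.896 in siNT and at 0.580, 0.722 and 0.346 in siSFSWAP, with a log2 odds ratio of -2.46 (SE 0.56; quasi-binomial adjusted p = 5.29e-04). The siSFSWAP libraries spread widely but all lay below the siNT libraries, and the call was lost without the one listed 3rd. With siUPF1 the levels were 0.844, 0.870 and 0.856 against 0.591, 0.369 and 0.704 (log2 odds ratio -2.24, SE 0.56; quasi-binomial adjusted p = 0.00273), lost without the siSFSWAP/siUPF1 library listed 2nd. Skipping leaves 217 of 815 codons. A form of exon 8 with another acceptor (chr3:50104229-50104308) shares its skipping reads. Its log2 odds ratio was -2.81 without siUPF1 (quasi-binomial adjusted p = 5.47e-04) and -2.30 with it. Exon 6 (74 nt, chr3:50100532-50100605) fell from 0.854, 0.948 and 0.826 to 0.589, 0.566 and 0.553 without siUPF1 (log2 odds ratio -2.39, SE 0.70; quasi-binomial adjusted p = 0.00645). With siUPF1 its groups overlapped, at 0.557, 0.732 and 0.812 against 0.512, 0.289 and 0.702. The RBM5 gene had 71.5, 74.0 and 91.6 RPM in the siNT libraries and 53.0, 67.4 and 62.8 after knockdown, and 77.0, 78.1 and 77.3 against 53.3, 59.2 and 64.2 with siUPF1.

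**Figure D1:**
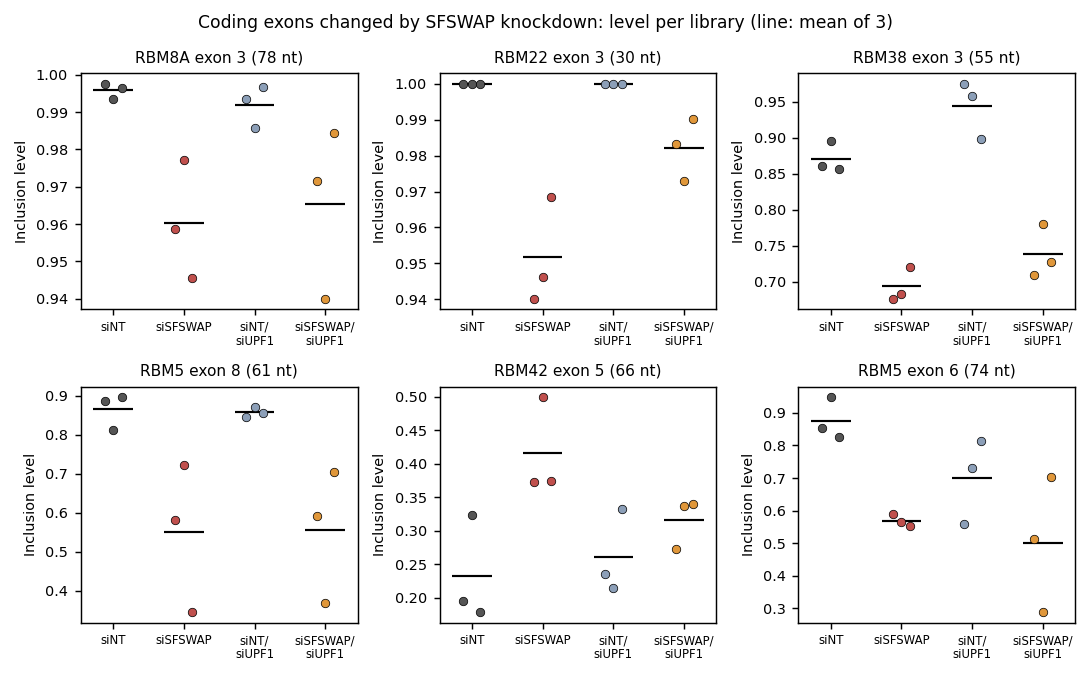
Inclusion level of RBM exons called changed by SFSWAP knockdown in each of the 12 libraries (vertical axis, 0 to 1 scale with a range set for each panel and not starting at 0), by group on the horizontal axis. Points are libraries and lines are means of 3; RBM8A exon 3 lay between 0.946 and 0.977 in siSFSWAP, below every siNT library.

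Smaller or less deeply covered changes lay in other spliceosome genes. RBM42, a protein of the tri-snRNP, included exon 5 (66 nt, chr19:35632936-35633001) at 0.196, 0.324 and 0.179 in siNT and at 0.373, 0.499 and 0.375 in siSFSWAP, when spliced to an acceptor within exon 6 (log2 odds ratio 1.21, SE 0.28; quasi-binomial adjusted p = 0.00111). This call was lost without the siSFSWAP library listed 2nd. RBM6 included exon 5 (70 nt, chr3:49975323-49975392) at 0.461, 0.390 and 0.266 in siNT and at 0.085, 0.138 and 0.086 in siSFSWAP (quasi-binomial adjusted p = 0.0334). RBM48, a protein of the minor spliceosome, had a 41-nt exon (chr7:92536434-92536474) with 7, 13 and 7 inclusion reads in siNT and 0, 1 and 0 in siSFSWAP (quasi-binomial adjusted p = 0.0256).

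RBMX, an hnRNP that regulates splicing, had 3 exon events called lower without siUPF1 and 3 called higher with siUPF1. The 3 with siUPF1 were overlapping forms of exon 4, with log2 odds ratios of 2.66 to 2.75. Exon 8 (83 nt, chrX:136875086-136875168) had 0 skipping reads in each siNT library and 11, 3 and 5 in siSFSWAP, for levels of 0.978, 0.993 and 0.989 (quasi-binomial adjusted p = 0.0386). Exon 4 (172 nt, chrX:136877915-136878086), whose skipping leaves 78 of 391 codons, rose with siUPF1. It had 21, 31 and 16 skipping reads in siNT/siUPF1 and 4, 6 and 1 in siSFSWAP/siUPF1, and levels of 0.983, 0.975 and 0.988 against 0.997, 0.996 and 0.999 (log2 odds ratio 2.72, SE 0.75; quasi-binomial adjusted p = 0.00151). Without siUPF1 exon 4 was at 0.992, 0.993 and 0.993 in siNT and at 0.997, 0.998 and 0.998 in siSFSWAP, also higher in every library, but did not pass the test (log2 odds ratio 1.60, SE 0.77; quasi-binomial adjusted p = 0.147). The difference between the backgrounds did not pass either (quasi-binomial adjusted p = 0.994). The RBMX retrocopy RBMXL1 could take some of these reads. The RBMX gene had 572, 670 and 597 RPM in siNT and 834, 814 and 844 in siSFSWAP, and 645, 651 and 663 against 784, 794 and 781 with siUPF1, with no overlap in either comparison.

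Several events of RBM39 lay between a pair of neighbouring MANE exons, where a 73-nt and a 155-nt exon can be included. In an event flanked by the 73-nt exon, the 155-nt exon (chr20:35739393-35739547) was included at 0.464, 0.438 and 0.314 in siNT and at 0.607, 0.606 and 0.583 in siSFSWAP (log2 odds ratio 1.23, SE 0.30, quasi-binomial adjusted p = 0.00255). Inclusion reads of such events can also come from transcripts without that flank. Their level is therefore not a proportion among transcripts that carried the flank. With siUPF1 the levels were 0.286, 0.221 and 0.210 against 0.333, 0.532 and 0.479 (log2 odds ratio 1.42, SE 0.27; quasi-binomial adjusted p = 8.18e-05). The 73-nt exon, in an event flanked by the 155-nt exon, was included at 0.730, 0.765 and 0.834 in siNT and at 1.000, 0.983 and 0.959 in siSFSWAP (quasi-binomial adjusted p = 0.00426). With siUPF1 the levels of the 73-nt exon overlapped, at 0.936, 0.938 and 0.965 in the controls and 0.872, 0.987 and 0.965 after SFSWAP knockdown (log2 odds ratio 0.27). The call of the 155-nt exon without siUPF1 was lost without the siNT library listed 3rd. A 244-nt form with the same acceptor (chr20:35739304-35739547), also in an event flanked by the 73-nt exon, rose with siUPF1 (log2 odds ratio 1.61, quasi-binomial adjusted p = 3.50e-05). That call was kept with each of the 6 libraries left out, while limma gave an adjusted p of 0.307. A longer form of the 73-nt exon (chr20:35740484-35740597), flanked by an exon with the acceptor of the 155-nt exon, rose without siUPF1 (log2 odds ratio 3.50, quasi-binomial adjusted p = 0.00314). With siUPF1 its log2 odds ratio was 0.20. Between MANE exons, the levels of the 73-nt exon overlapped without siUPF1. The 155-nt and 244-nt exons were not called there with siUPF1, as given below. Exon 5 of RBM39 (66 nt, chr20:35729462-35729527) rose from 0.895, 0.891 and 0.907 to 0.925, 0.914 and 0.927 (log2 odds ratio 0.43, SE 0.15; quasi-binomial adjusted p = 0.0425), a call kept in 1 of 6 fits that left out a library.

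In the UPF1 knockdown background, SFSWAP knockdown changed 20 RBM exon events in 7 genes. Of 189 tested events 7 rose (3.70%) and 13 fell (6.88%), against 3.38% and 2.90% of the 34006 events tested over all genes. Several of these RBM events were overlapping forms of the same exon that share reads, so the RBM shares count some exons more than once. The median log2 odds ratio was 0.03 for the RBM events and 0.07 for all. Of the 13 that fell, 8 were exons whose inclusion brings an early stop, in RBM25, RBM34 and RBM39, and the others were the RBM8A, RBM38 and RBM5 exons described above, with their alternative acceptors. The count was 11 without the siSFSWAP/siUPF1 library listed 2nd, 12 without the one listed 3rd, and 26 without the siNT/siUPF1 library listed 3rd, while limma on the log2 odds called 0 and a dispersion taken from each event alone called 0. UPF1 had 87.4 ± 24.4 RPM in siNT/siUPF1 and 119 ± 34.3 in siSFSWAP/siUPF1 (SD, n = 3), which overlap (exact permutation p = 0.3), and the part of this in the results with siUPF1 was not tested. By role, 2 of 97 events rose and 9 fell among genes of the spliceosome and exon junction complex, 3 of 31 rose and 1 fell among the regulators of alternative splicing, and 2 of 21 rose and 3 fell among the ribosome and nucleolus genes, all of them in RBM34. No event passed among the cold shock genes (17 tested), the decay and export genes (10) or the other RBM genes (13).

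RBM25, a U1-associated splicing factor, carries the 62-nt exon printed above (chr14:73100301-73100362), and its inclusion leaves 294 of 843 codons. The level was 0.110, 0.072 and 0.024 in siNT/siUPF1 and 0.022, 0.016 and 0.020 in siSFSWAP/siUPF1 (log2 odds ratio -1.86, SE 0.44; quasi-binomial adjusted p = 6.39e-04). The level of 0.024 in siNT/siUPF1 lay close to the knockdown levels, and the call was lost without the siNT/siUPF1 library listed 1st. Without siUPF1 it was 0.042, 0.058 and 0.025 in siNT and 0.028, 0.053 and 0.026 in siSFSWAP, which overlap.

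RBM34, a nucleolar protein, carries the 104-nt exon printed above (chr1:235160145-235160248), whose inclusion leaves 132 of 430 codons. It had 11, 22 and 16 inclusion reads in siNT/siUPF1 and 0, 2 and 2 in siSFSWAP/siUPF1 (log2 odds ratio -3.35, SE 1.15; quasi-binomial adjusted p = 0.00500). Forms of 108 and 255 nt share the same acceptor and fell with it. In the same transcript exon 3 (137 nt, chr1:235160511-235160647), whose skipping brings a stop after 83 codons, was included at 0.895, 0.847 and 0.930 in siNT/siUPF1 and at 0.936, 0.942 and 0.970 in siSFSWAP/siUPF1 (log2 odds ratio 1.26, SE 0.37; quasi-binomial adjusted p = 0.0138). Without siUPF1 neither event of RBM34 was called. The 104-nt exon was included at 0.00505, 0.00360 and 0.00932 in siNT and at 0.00424, 0.00122 and 0.0126 in siSFSWAP (log2 odds ratio 0.13), and exon 3 at 0.960, 0.959 and 0.964 against 0.963, 0.963 and 0.958 (log2 odds ratio -0.03).

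RBM39 held the most stop-bringing exons. Its 72-nt exon (chr20:35734186-35734257), which leaves 47 of 530 codons, was included at 0.040, 0.044 and 0.024 in siNT/siUPF1 and at 0.019, 0.023 and 0.018 in siSFSWAP/siUPF1 (log2 odds ratio -0.84, SE 0.22; quasi-binomial adjusted p = 0.00695). Its 156-nt exon was included at 0.027, 0.038 and 0.019 against 0.007, 0.015 and 0.011 (log2 odds ratio -1.37, SE 0.45; quasi-binomial adjusted p = 0.0283). The 73-nt exon (chr20:35740525-35740597) was the most used, and leaves 40 codons. It was included at 0.090, 0.139 and 0.199 in siNT, at 0.128, 0.147 and 0.150 in siSFSWAP, at 0.344, 0.386 and 0.193 in siNT/siUPF1 and at 0.193, 0.186 and 0.140 in siSFSWAP/siUPF1. It passed the test with siUPF1 (log2 odds ratio -1.07, SE 0.20; quasi-binomial adjusted p = 8.30e-05), but the siNT/siUPF1 library listed 3rd lay among the knockdown levels, so it was not counted as changed. That library also had the most UPF1 reads of its group, 112 RPM beside 63.4 and 86.8, and its part in the result was not tested.

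**Figure D2:**
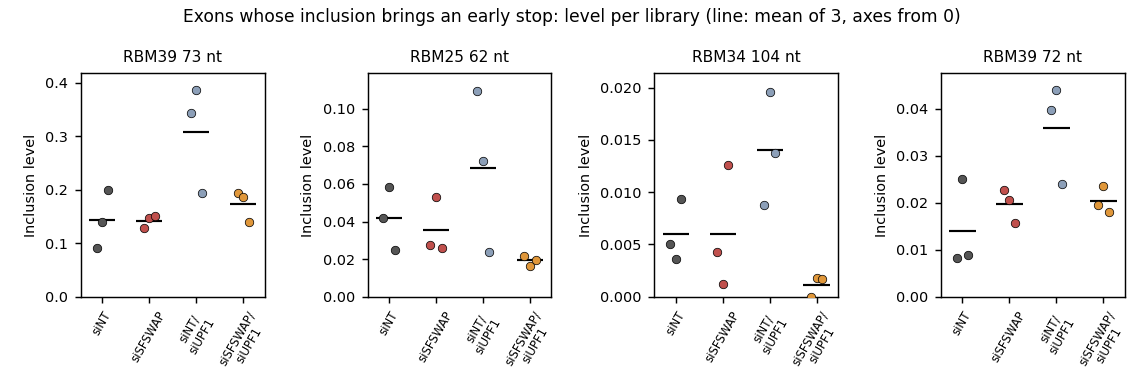
Inclusion level (vertical axis, from 0, with its own range in each panel) of 4 RBM exons whose inclusion brings an early stop, by group on the horizontal axis. Points are libraries and lines are means of 3; the 73-nt exon of RBM39 reached 0.386 in siNT/siUPF1 and at most 0.193 in siSFSWAP/siUPF1.

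UPF1 knockdown on its own changed 2 of 149 tested RBM exon events between siNT and siNT/siUPF1, both lower, where 0.970% of all 28261 events were called. Only events listed with the same coordinates without and with siUPF1 entered the UPF1 comparisons. These were 298 RBM exon events, of 554 and 472, and 25 RBM introns, of 51 and 45. An exon listed only with siUPF1 was therefore not compared. RBM34 exon 3 fell from 0.960, 0.959 and 0.964 to 0.895, 0.847 and 0.930 (log2 odds ratio -1.64, SE 0.39; quasi-binomial adjusted p = 0.0102), and the call was lost without the siNT library listed 1st or the siNT/siUPF1 library listed 2nd. The 155-nt exon of RBM39 fell from 0.464, 0.438 and 0.314 to 0.286, 0.221 and 0.210 in the event flanked by the 73-nt exon (log2 odds ratio -1.02, SE 0.27, quasi-binomial adjusted p = 0.0421). This call was lost without either of 2 siNT libraries, those listed 1st and 2nd, or the siNT/siUPF1 library listed 2nd. Without the siNT/siUPF1 library listed 3rd 10 events were called, and 6 without the siNT library listed 3rd. The RBM39 73-nt exon passed the test (log2 odds ratio 1.33, SE 0.25; quasi-binomial adjusted p = 0.00131) but overlapped, at the levels given above. In SFSWAP knockdown cells, UPF1 knockdown changed 0 of 147 tested RBM exon events in the quasi-binomial test, where 0.0427% of all events were called; 10 had an unadjusted p under 0.05, and limma called 0.

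Exons were also sorted by what their inclusion does to the reading frame of the MANE Select transcript, with an early stop counted when it lay more than 50 bases before the last junction. Stop-bringing exons of the RBM genes had higher mean levels with siUPF1 than without in 35 of 39 tested events (median difference 0.0218), while 16 of 42 events open in both forms did. After SFSWAP knockdown in that background 38 of 59 stop-bringing events were lower (64.4%, median log2 odds ratio -0.65). Of these 59, 8 were called lower and 0 higher. The 8 include forms with the same acceptor, such as those of RBM34, and are not independent. This class leaves out 35 events not placed on the MANE transcript, of which 8 were lower (median log2 odds ratio 0.69). Of those 35, 2 were called higher and 0 lower, the 155-nt and 244-nt exons of RBM39. As events placed on that transcript, the same exons counted as stop-bringing and were not called (log2 odds ratios -0.17 and 0.03). Of the events open in both forms 25 of 44 (56.8%) were lower, and 3 were called lower. Without siUPF1 24 of 54 stop-bringing events were lower and 30 higher after SFSWAP knockdown, and the quasi-binomial test called 0. In SFSWAP knockdown cells, 23 of 42 stop-bringing events were higher with siUPF1 than without. The first 2 comparisons share the siNT/siUPF1 libraries, so their opposite directions are not independent, and no test of the classes was made. The 8 called events became 3 without any 1 of the siSFSWAP/siUPF1 libraries, 5 and 4 without the siNT/siUPF1 libraries listed 1st and 2nd, and 13 without the one listed 3rd.

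**Figure D3:**
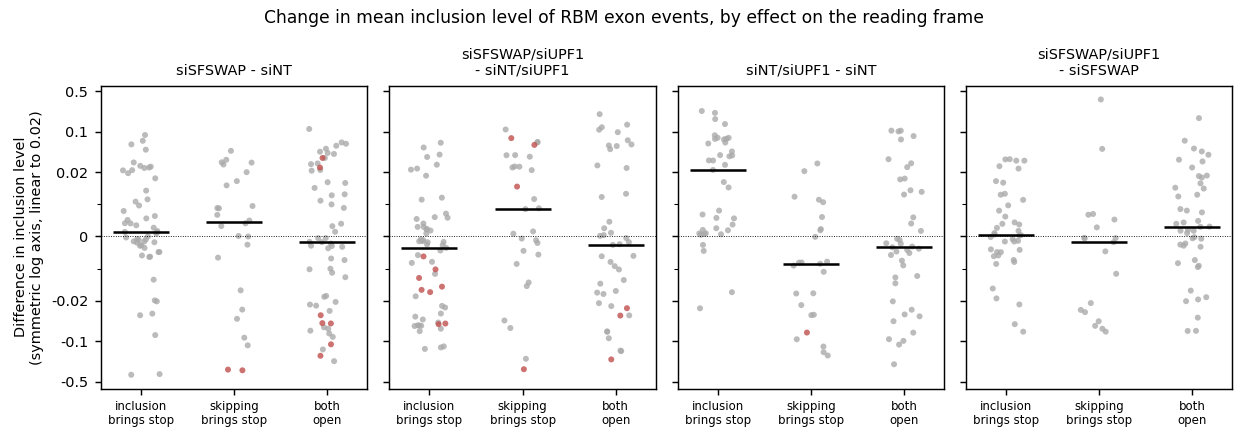
Difference in mean inclusion level (vertical axis, knockdown minus control, symmetric log scale that is linear to 0.02) of tested RBM exon events (points, red where called changed, with lines at the medians), sorted by what inclusion or skipping does to the reading frame, for the 4 comparisons. Stop-bringing exons lay above 0 for 35 of 39 events on UPF1 knockdown and below 0 for 38 of 59 events on SFSWAP knockdown with siUPF1.

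The libraries without and with siUPF1 are separate, so the effect of SFSWAP knockdown can be set side by side. Of 123 RBM exon events tested in both, 14 were changed without siUPF1, and 13 of these (92.9%) had the same direction with siUPF1, beside 94.6% of the changed events over all genes. For the 13 changed with siUPF1, 9 (69.2%) had the same direction without, beside 94.0% over all genes. The 6 changed in both moved the same way. Across these 123 events the log2 odds ratios correlated with Pearson's r = 0.44 and Spearman's rho = 0.39, as a description across events that share exons and genes. A test of the difference between the backgrounds, over all 12 libraries, called 0 of 211 RBM exon events and 0 of 23 introns in the quasi-binomial test, where 0.00771% and 0.0291% of all events were called; 14 exon events and 1 intron had an unadjusted p under 0.05. The lowest were the RBM39 72-nt exon (unadjusted p = 0.00323), the RBM48 41-nt exon (0.00579), an RBM14RBM4 exon (0.00756) and the RBM34 104-nt exon (0.00782), each with a quasi-binomial adjusted p of 0.994.

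**Figure D4:**
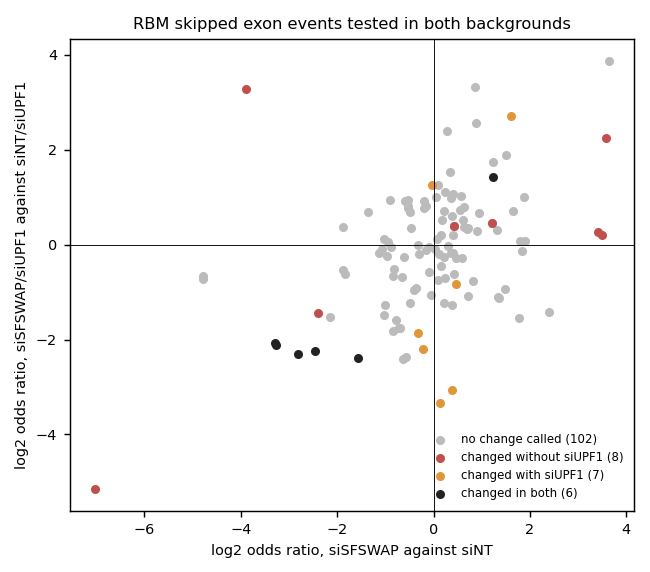
Log2 odds ratio of inclusion after SFSWAP knockdown with siUPF1 (vertical axis) against the same without siUPF1 (horizontal axis) for 123 RBM exon events tested in both. Colours mark events changed in neither (102), without siUPF1 only (8), with siUPF1 only (7) and in both (6). Ratios of events with no skipping read in a group, such as the RBM22 point at the lower left, depend on the pseudocount of 0.5.

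The most-read exon events of several genes did not pass the test without siUPF1. The log2 odds ratio was 3.48 for an exon of RBM10 (chrX:47185055-47185204; quasi-binomial adjusted p = 0.0780) and 1.80 for an exon of RBM23 (chr14:22909483-22909595; quasi-binomial adjusted p = 0.0860). For the most-read exons of RBM3, RBM4, RBM6 and RBM25 it was 0.38, 0.22, 0.94 and -0.48, with quasi-binomial adjusted p-values from 0.535 to 0.764.

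Few retained introns of RBM genes were called changed. Without siUPF1, 1 of 40 tested introns was called lower, the RBM38 intron above, where 9.27% of all 5845 were called in either direction. An 86-nt intron of RBM10 (chrX:47186172-47186257) passed the adjusted p but overlapped, at 0.043, 0.018 and 0.039 against 0.009, 0.020 and 0.008 (log2 odds ratio -1.40, SE 0.47; quasi-binomial adjusted p = 0.0371). With siUPF1 the quasi-binomial test called 0 of 34, where 3.41% of all were called; 3 had an unadjusted p under 0.05 and limma called 0. For UPF1 knockdown it called 0 of 22 with SFSWAP present and 0 of 20 in SFSWAP knockdown cells, where 0.0659% and 0.0995% of all introns were called; 1 intron in each had an unadjusted p under 0.05, and limma called 0 in each. The median log2 odds ratio without siUPF1 was 0.03 for RBM introns and -0.25 for all.

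The exons changed by SFSWAP knockdown were not of a single kind. Without siUPF1, 9 of the 18 were coding exons of the MANE Select transcript, 5 lay inside its introns and 4 used another splice site of an exon, while of the 169 exons tested 46 were coding and 57 lay inside introns. With siUPF1 5 of 20 were coding and 10 lay inside introns. Of the 154 exons tested there, 38 were coding and 66 lay inside introns. The changes ranged from 0.0136 to 0.431 in inclusion level without siUPF1 and from 0.00619 to 0.370 with it. The median length without siUPF1 was 84.5 nt for exons that rose and 74.5 nt for those that fell. It was 112.5 nt for all RBM exons tested and 121 nt for all exons tested. The median upstream intron was 777.5 and 490.5 nt beside 2110 nt for RBM exons tested. The downstream intron was 268 and 1622 nt beside 2038 nt. Changed exons over all genes had median lengths of 126 and 87 nt. Their upstream introns were 585 and 1081 nt beside 1684 nt for all exons tested, so shorter upstream introns were not particular to RBM genes. With siUPF1 the median length was 165 nt for exons that rose and 78 nt for those that fell, beside 105 nt for all RBM exons tested.

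Read levels per gene, in RPM, overlapped between groups for most of the 34 RBM genes with a tested event. Without siUPF1 9 of them (26.5%) had levels that did not overlap, 3 higher and 6 lower, where 32.6% of all 9071 genes did. With siUPF1 it was 8 (23.5%), 5 higher and 3 lower, beside 20.6%. Between siNT and siNT/siUPF1 it was 7, 2 higher and 5 lower, beside 26.1%. These shares lay near those of all genes. RBM3, a cold-inducible protein, had 113, 102 and 94.7 RPM in siNT and 67.4, 62.8 and 57.1 in siSFSWAP, and 79.8, 89.8 and 80.9 against 50.2, 55.6 and 64.2 with siUPF1. RBM39 had 1165, 1280 and 1375 in siNT, 1255, 1373 and 1728 in siSFSWAP, 1908, 2113 and 1985 in siNT/siUPF1 and 1608, 1716 and 1695 in siSFSWAP/siUPF1. In bulk RNA, fewer cells with a transcript and less of it per cell cannot be told apart, and these sums also move with the number of events listed for a gene.

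**Figure D5:**
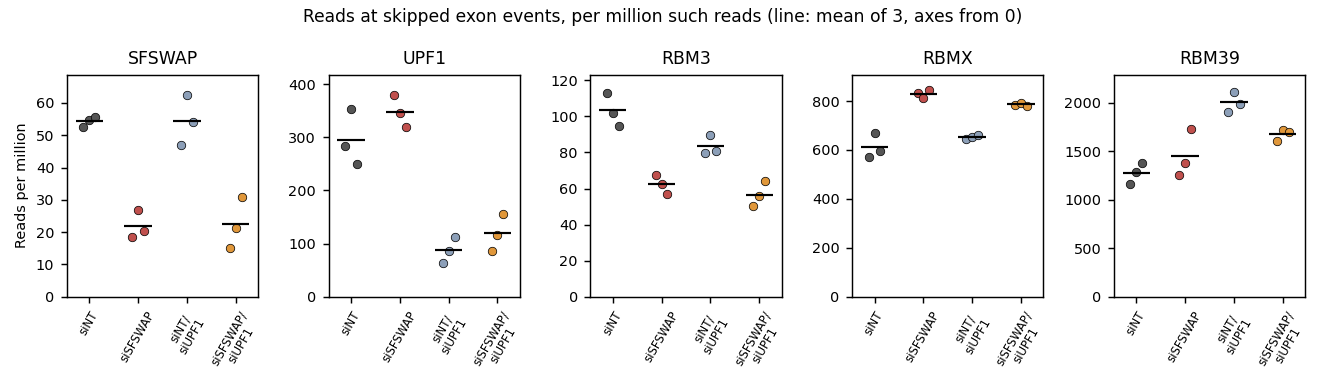
RPM over skipped exon events (vertical axis, linear, from 0) for SFSWAP, UPF1 and RBM genes in each of the 12 libraries, by group; points are libraries and lines are means of 3. RBM3 was lower and RBMX higher in both siSFSWAP groups than in their controls.

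The partners of RBM proteins, a list that holds the exon junction complex, U2, exosome targeting and m6A genes, gave 79 tested exon events without siUPF1, of which 2 rose (in MAGOH and WTAP) and 4 fell (in CASC3 and LUC7L3), beside the 6.63% and 3.74% over all events. With siUPF1, 8 of 74 fell (in LUC7L3, MAGOHB and U2AF2) and none rose, beside 2.90% and 3.38%. Between siNT and siNT/siUPF1, 3 of 7 tested exon events of MAGOHB and 2 of 8 of U2AF2 rose, a comparison that shares the siNT/siUPF1 libraries with these falls. Of 17 partner introns 2 fell without siUPF1, in U2AF2 and WTAP, beside 484 of 5845 introns over all genes. With siUPF1 1 of 13 fell, in LUC7L3, beside 129 of 5105. For RBM26AS1, which lies antisense to RBM26, and RBM14RBM4, which shares exons with RBM14 and RBM4, the reads cannot be assigned to 1 gene with certainty, since the strand used in counting is not given in the sources used here.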

How the data were processed

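Poly(A) RNA of 12 libraries was sequenced as single-end 100-base reads. The authors trimmed them with cutadapt 1.9.1, aligned them with STAR 2.7 to GRCh38.p8 with RefSeq genes and predicted decoy exons, as their processing notes name, and counted events with rMATS. The deposited inclusion and skipping read counts are joined 3 libraries to a cell and were used as they stand; the side of each table was assigned by the study's definition of the difference as siNT minus siSFSWAP. The authors' inclusion-level fractions were recomputed from the counts. The deposited p-values, FDR values and difference scores hold the authors' own comparisons and were not used.

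Events needed a mean of 10 reads per library, and at least 10 inclusion and 10 skipping reads for a test. A quasi-binomial model (R 4.3.3, dispersions moderated with limma 3.58.1 and floored at 1) was fitted to all events, with Benjamini-Hochberg adjustment over all of them; the script was tested on simulated data. P-values rest on a dispersion between the 3 biological replicates that was drawn largely from all events tested. Each event's own spread therefore counts for little in its p-value. A log2 odds ratio used a pseudocount of 0.5. Exons were placed on GENCODE v44 MANE transcripts, and 278 of 288 exon events had AG before and GT or GC after on hg38. Read totals count junction reads again in overlapping events, so they give relative levels only.

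The members and gene lists were chosen with earlier results of these data known. Named events were the changed exons and introns with the lowest adjusted p in each comparison (10 and 6 for SFSWAP knockdown, 6 and 4 for UPF1 knockdown, 4 for the difference between backgrounds) and the most-read tested exon and intron of RBM39, RBM5, RBM6, RBM10, RBM25, RBM22, RBM23, RBMX, RBM3, RBM4, RBM8A and RBM7; other named events were chosen after their values were seen. RBM7 had no tested event. Filters, dispersions, limma, redundant events and left-out libraries were varied. A result for the partner genes and some sequences are not reported here.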

Additional observations from a re-analysis of the deposited data

Results flagged for a closer look

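The 41-nt exon of RBM48 moved in opposite directions in the 2 backgrounds. Without siUPF1 its inclusion level was 0.146, 0.139 and 0.071 in siNT and 0, 0.018 and 0 in siSFSWAP, and with siUPF1 it was 0.015, 0 and 0 against 0.119, 0.090 and 0.019. The difference between the backgrounds was 7.17 on the log2 odds scale (unadjusted p = 0.00579; quasi-binomial adjusted p = 0.994), so it did not pass the test over all events, and it rests on few inclusion reads.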

How the results depend on the processing

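The calls depend on the test. Without siUPF1 the 18 changed RBM exon events became 1 with no filter on reads, 0 with each event's own dispersion, 8 and 7 with limma at a pseudocount of 0.5 and 1, 8 when a difference of 0.2 was required, and 11 to 18 when a library was left out. With siUPF1 the 20 became 0 with no filter, own dispersions or limma at either pseudocount, 4 at a difference of 0.2 and 11 to 26 on leaving out a library. For UPF1 knockdown with SFSWAP present the 2 became 0 at 30 reads, with no filter, own dispersions, limma at either pseudocount and a difference of 0.2, 5 by adjusted p alone, 1 with 1 event per exon and 0 to 10 on leaving out a library. The 1 intron without siUPF1 became 0 at 30 reads, with no filter, own dispersions and limma at either pseudocount, 2 by adjusted p alone and 0 to 3 on leaving out a library (0 without the siSFSWAP library listed 1st, 3 without the siNT or the siSFSWAP library listed 2nd). With siUPF1 introns gave 0 to 1, and the difference between backgrounds 0 to 2, on leaving out a library, the higher count in each without the siNT/siUPF1 library listed 3rd. The 8 stop-bringing exons, an alternative set chosen after seeing the data, became 5 at 30 reads, 0 with no filter, own dispersions and limma at either pseudocount, and 3 to 13 on leaving out a library; the share higher on UPF1 knockdown was 70.0% to 89.5% and the share lower on SFSWAP knockdown with siUPF1 was 62.3% to 76.5%. The cause was not tested. Depth limits low-level exons, where a few reads set the call.

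Direction turned for events that passed no threshold. The 161-nt exon of RBM5 without siUPF1 was 0.10 on the log2 odds scale and -0.11 with limma at either pseudocount, and -0.20 to 0.41 on leaving out a library. Without siUPF1 the ranges on leaving out a library were -0.0339 to 0.70 for the RBM3 exon and -0.0106 to 0.35 for the RBM4 exon, and for introns -0.33 to 0.0502 (RBM5), -0.0317 to 0.50 (RBM22), -0.36 to 0.0170 (RBM23) and -0.0514 to 0.25 (RBM3). With siUPF1 they were -0.37 to 2.36 (RBM6), -0.0101 to 0.82 (RBM25), -0.28 to 0.67 (RBM23) and -0.45 to 0.0127 (RBM4) for exons, and -0.20 to 0.29 (RBM10), -0.19 to 0.39 (RBM25), -0.27 to 0.82 (RBM23) and -0.12 to 0.38 (RBM3) for introns. The edgeR alternative was not run, since the deposited cells join 3 counts. No paired analysis was possible because the tables list libraries by place, with no replicate number.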
